A study of Mus musculus with 6 samples.

Results

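The genes described here are 9 genes of the plasma cell program, Prdm1, Xbp1, Sdc1, Jchain, Creb3l2, Ell2, Cd28, Slamf7 and Atf6, chosen by name from 21864 protein-coding genes. They were read in germinal center (GC) B cells, the cells that precede plasma cells, to see whether they carry H3K4me3 or H3K4me1 before differentiation. The 6 libraries were Mint-ChIP profiles, a chromatin immunoprecipitation assay for small samples in which chromatin is barcoded before pooling. There were 3 libraries for H3K4me3 and 3 for H3K4me1. All came from spleens of wild-type mice at day 8 after immunization with sheep red blood cells, with 50000 sorted cells per library. The labels call the cells GC centrocytes and the methods call them GC B cells. All groups share this genotype, treatment and time, so the design holds no plasma cell, naive B cell or mutant group. The labels' extraction protocol mentions an H3K27ac antibody, and the marks were taken from the sample titles and antibody labels. The methods give an age of 8 to 12 weeks at immunization. Wild-type mice elsewhere in the study carried the Cγ1-cre allele, and the labels do not say whether these mice did.

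A plasma cell forms when a B cell gives up its B cell identity and turns into an antibody secreting factory. Blimp-1, the product of Prdm1, represses B cell genes, while XBP1 expands the endoplasmic reticulum. H3K4me3 is typically laid down at the starts of active or poised genes, and H3K4me1 is typical of enhancers and of the flanks of promoters. In GC B cells, BCL6 is known to repress Prdm1.

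For each gene, peaks were read in 3 zones. The promoter zone reached 5 kb to either side of a protein-coding transcription start site (TSS), the gene body zone was the rest of the annotated gene, and the outer zone reached from 5 to 50 kb from a TSS outside the gene. The measure of amount was the covered length, the base pairs of a zone that lie under peaks. The H3K4me3 lists held 41936 to 46707 peaks per library with median widths of 821 to 857 bp, and the H3K4me1 lists held 11922 to 24136 peaks with median widths of 253 to 270 bp. H3K4me1 replicate 1 had the most H3K4me1 peaks. H3K4me3 was called in broad mode and H3K4me1 in narrow mode, so a contrast of marks cannot be told apart from a contrast of calling modes. The strongest point of an H3K4me1 peak, its summit, held a median of 6 fragments in each library, so a missing H3K4me1 peak says that none was detectable at this depth. Of 12 GC B cell genes, 12 had promoter H3K4me3 and 9 promoter H3K4me1 in 3 of 3 libraries. For 12 T cell genes the counts were 5 and 2, for 9 myeloid and erythroid genes 4 and 0, for 8 genes of other tissues 2 and 0, and for 6 housekeeping genes 5 and 0. Over all protein-coding genes the shares were 56.2% and 6.17%.

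Promoter sequences of 4 of the genes are shown because they mark the ends of the range described below, with little CpG at Jchain and Slamf7 and much at Prdm1 and Ell2. They are the RefSeq windows (build GRCm38.p6) from 250 bases before to 50 bases after the start, 5′ to 3′ on the strand of the gene, with CpG dinucleotides in capitals. The windows are chr5:88527848-88528147 (minus strand) for Jchain, chr1:171648950-171649249 (minus) for Slamf7, chr10:44458699-44458998 (minus) for Prdm1 and chr13:75707234-75707533 (plus) for Ell2.
Jchain: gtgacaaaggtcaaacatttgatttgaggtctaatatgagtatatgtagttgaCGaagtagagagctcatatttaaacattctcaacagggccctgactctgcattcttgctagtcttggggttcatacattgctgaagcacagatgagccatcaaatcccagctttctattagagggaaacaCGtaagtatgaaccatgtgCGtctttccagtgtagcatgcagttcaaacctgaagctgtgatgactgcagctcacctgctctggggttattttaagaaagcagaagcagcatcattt
Slamf7: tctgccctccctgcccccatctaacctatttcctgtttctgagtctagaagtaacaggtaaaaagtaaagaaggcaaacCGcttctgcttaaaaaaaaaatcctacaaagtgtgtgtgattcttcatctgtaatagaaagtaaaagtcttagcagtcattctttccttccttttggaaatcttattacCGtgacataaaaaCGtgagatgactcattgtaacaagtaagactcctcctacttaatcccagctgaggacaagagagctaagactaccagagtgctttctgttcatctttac
Prdm1: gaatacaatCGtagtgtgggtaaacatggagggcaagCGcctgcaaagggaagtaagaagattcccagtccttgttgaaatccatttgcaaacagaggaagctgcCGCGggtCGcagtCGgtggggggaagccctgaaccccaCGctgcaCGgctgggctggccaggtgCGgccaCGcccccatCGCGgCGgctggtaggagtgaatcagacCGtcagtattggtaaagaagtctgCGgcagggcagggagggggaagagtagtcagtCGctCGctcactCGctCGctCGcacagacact
Ell2: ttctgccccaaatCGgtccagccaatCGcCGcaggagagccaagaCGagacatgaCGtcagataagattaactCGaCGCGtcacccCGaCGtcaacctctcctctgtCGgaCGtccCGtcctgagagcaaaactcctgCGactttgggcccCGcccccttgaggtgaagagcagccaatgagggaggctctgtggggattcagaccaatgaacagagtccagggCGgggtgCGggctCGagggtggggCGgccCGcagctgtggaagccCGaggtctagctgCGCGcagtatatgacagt

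H3K4me3 was present at the promoters of most of these genes in GC B cells. A promoter H3K4me3 peak was found in 3 of 3 libraries at 8 of 9 genes, and 56.2% of all protein-coding genes met the same rule. Cd28, a costimulatory receptor best known on T cells and also carried by plasma cells, was the exception, with no promoter peak of either mark in any of the 6 libraries. Promoter H3K4me1 was found in 3 of 3 libraries at 3 genes, Jchain, Slamf7 and Atf6, against 6.17% of all genes. Xbp1 had it in 2 libraries and Ell2 in 1. Prdm1, Sdc1 and Creb3l2 had promoter H3K4me3 in 3 libraries and promoter H3K4me1 in 0, a combination found at 21.9% of all genes. No H3K4me1 peak covered a TSS of any of the 9 genes, and such a peak in 3 of 3 libraries was found at 6 genes in all. With only the 10000 best peaks per library, promoter H3K4me3 was left at 5 of the 9 genes, without Sdc1, Jchain and Ell2, and 23.8% of all genes met the rule. With a distance of 1 kb in place of 5 kb, promoter H3K4me1 was left at 0 of the 9 and at 1.49% of all genes, while promoter H3K4me3 was found at 8 of the 9 and at 52.1% of all genes.

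**Figure D1:**
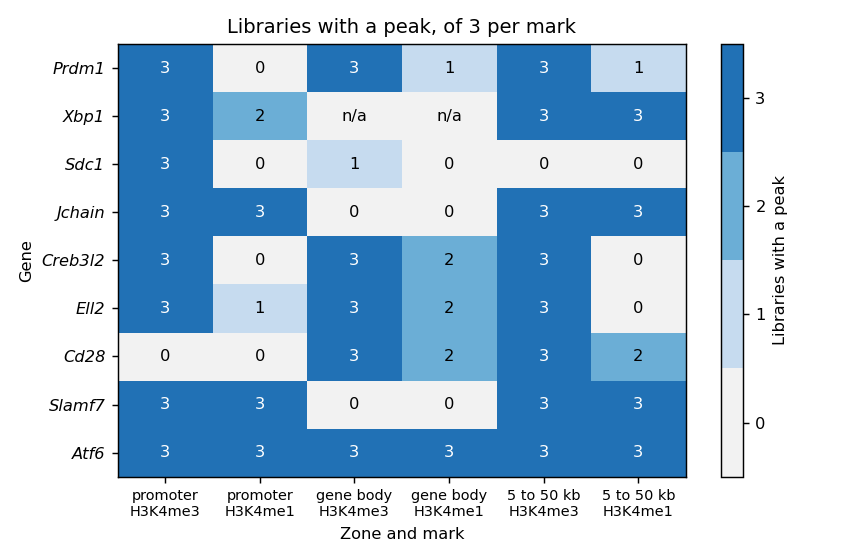
Number of libraries, of 3 per mark, in which each gene (rows) had a peak in each zone (columns); n/a marks Xbp1, whose whole gene lies in its promoter zone. The promoter H3K4me3 column holds 3 for 8 of 9 genes, and the promoter H3K4me1 column holds 3 for 3 genes.

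Prdm1, which encodes the repressor Blimp-1 that drives plasma cell differentiation, had H3K4me3 at its coding starts in every library. The promoter covered length was 3271, 2665 and 2860 bp in H3K4me3 replicates 1 to 3, a mean of 2932 ± 309 bp (SD, n = 3), and it was 0 bp in each H3K4me1 library. The 3 coding TSSs, between chr10:44457210 and chr10:44458748 on the minus strand, all lay under the peak in all 3 H3K4me3 libraries. The strongest promoter peak of each library had a fold enrichment over background of 7.29, 6.01 and 5.83. The H3K4me3 length was above that of 77.8% of the 14325 genes with any promoter H3K4me3.

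A further H3K4me3 region of Prdm1 lay far upstream, at chr10:44526663-44530718, from 67915 to 71970 bp before the nearest coding TSS, in all 3 libraries. In the GENCODE annotation the gene's outermost 5′ end, at 44528501, falls inside this region and belongs to a noncoding transcript with a retained intron. In 1 H3K4me1 library a peak touched this region, but that peak fell in no zone of Prdm1 and is not counted for it. An intronic region 6799 to 7674 bp downstream of the TSS (chr10:44449536-44450411) also carried H3K4me3 in 3 libraries, and 1 H3K4me1 library had a peak there with 8 fragments at its summit. Beyond the 3′ end, chr10:44433405-44435322 carried H3K4me3 in 3 libraries and H3K4me1 in 1.

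Xbp1, the transcription factor of the unfolded protein response that expands the secretory apparatus, had promoter H3K4me3 over 2562, 3331 and 3130 bp in the 3 libraries, a mean of 3008 ± 399 bp (SD, n = 3). Promoter H3K4me1 covered 0, 211 and 263 bp. The peaks of these 2 H3K4me1 libraries overlapped, 63 to 393 bp downstream of the second TSS. The first TSS (chr11:5520659) lay under H3K4me3 in replicates 1 and 3, and the second (chr11:5521663) in all 3 libraries.

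Upstream of Xbp1 stood a series of H3K4me3 regions in 3 of 3 libraries. They lay at chr11:5485249-5487201, 5498254-5502004, 5505696-5506399, 5508517-5510411 and 5511160-5513115, and none had a coding TSS of another gene within 5 kb. H3K4me1 was found in all 3 libraries in 2 of them, over chr11:5500271-5500995 and chr11:5508780-5509672. A sixth outer H3K4me3 region, downstream, lay at the start of the neighbour Ccdc117. Near the start of Ankrd36 a single H3K4me1 peak was found in 1 library.

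Atf6, a membrane-bound sensor of endoplasmic reticulum stress, carried the most promoter H3K4me1 of the 9 genes, at 1349, 1098 and 1228 bp (1225 ± 126 bp, SD, n = 3). This was above 99.3% of the 7805 genes with any promoter H3K4me1. Its promoter H3K4me3 covered 6194, 5599 and 5345 bp (5713 ± 436 bp, SD, n = 3), or 57.1% of the zone. The H3K4me3 formed a merged region of 7802 bp from 1427 bp before to 6374 bp after the TSS (chr1:170861397-170869198). The H3K4me1 found in 3 libraries lay in its downstream end, 4127 to 6072 bp from the TSS.

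Atf6 was also the 1 gene of the 9 with gene body H3K4me1 in 3 of 3 libraries, against 8.67% of the 16746 genes that have such a zone. Its gene body zone, at 158097 bp, is the longest of the 9, and that share is not matched for length. Cd28 and Ell2 joined Atf6 without H3K4me1 replicate 2, and Creb3l2 without replicate 3. Farther into the gene, a second merged H3K4me3 region of 8473 bp reached from 7959 to 16431 bp after the TSS. Near the 3′ end of this 163098 bp gene, chr1:170709254-170710716 carried H3K4me1 in 3 libraries inside H3K4me3 in 3 libraries. The highest summit there held 16 fragments. An outer region with both marks in 3 libraries lay at the starts of the neighbours Dusp12 and Gm26620. Another with H3K4me3 in 3 libraries lay within 5 kb of the start of Fcrlb.

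Creb3l2, an endoplasmic reticulum-bound transcription factor related to the unfolded protein response, had promoter H3K4me3 over 3035, 1996 and 1901 bp (2311 ± 629 bp, SD, n = 3) and no promoter H3K4me1. Replicate 1 was the longest of the 3. An intronic H3K4me3 region 12891 to 15737 bp after the TSS was found in 3 libraries. Gene body H3K4me1 was found in 2 libraries, at different places, with 5 and 4 fragments at the summit.

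Ell2, an elongation factor that directs the switch to secreted immunoglobulin mRNA, had the least promoter H3K4me3 of the 8 marked genes and the widest spread. The covered length was 1229, 1613 and 2800 bp (1881 ± 819 bp, SD, n = 3). It was split into 2 regions in 3 libraries, at chr13:75706190-75707162 and chr13:75708058-75709885. The second coding TSS (75707590) lay in the gap between them and under no peak in any library, and the first (75706757) lay under H3K4me3 in replicates 2 and 3. The RefSeq promoter printed above, with 23 CpG, also lies wholly in that gap. The gene body held 3 H3K4me3 regions in 3 libraries, at distances from 8973 to 32958 bp, and H3K4me1 in replicates 1 and 3. No gene body H3K4me1 region was shared by these replicates.

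Jchain, which encodes the joining chain of secreted IgM and IgA, had promoter H3K4me3 over 5357, 5303 and 6324 bp (5661 ± 575 bp, SD, n = 3), above 96.1% of genes with any. Promoter H3K4me1 covered 762, 194 and 444 bp. All 3 H3K4me1 libraries had a promoter peak, but no single H3K4me1 region in the promoter zone was shared by all 3. The H3K4me3 peaks of the 3 libraries merged into 12943 bp, from 9824 bp before to 3118 bp after the TSS (chr5:88524773-88537715). A region farther upstream, chr5:88540460-88540876, had H3K4me1 in 3 libraries within H3K4me3 in 3 libraries.

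The outer zone of Jchain held much H3K4me3, with 22723, 18712 and 18550 bp covered. Of its outer regions found in 3 libraries, those near the neighbours Enam, Utp3 and Rufy3 lay within 5 kb of a coding TSS of those genes.

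Slamf7, a surface receptor abundant on plasma cells, had the longest promoter H3K4me3 of the 9 genes, with the smallest spread of the 8 marked genes. It covered 6762, 6591 and 6783 bp (6712 ± 105 bp, SD, n = 3), above 98.1% of genes with any. Its promoter zone is also the largest of the 9, at 14109 bp with 4 coding TSSs, and 47.6% of it was covered. Promoter H3K4me1 covered 787, 768 and 717 bp (757 ± 36 bp, SD, n = 3). The highest promoter summits held 11, 12 and 8 fragments in the 3 libraries. No single H3K4me1 region in the promoter zone was shared by all 3. The summit of 8 fragments lay in another region than those of 11 and 12.

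Upstream of Slamf7, chr1:171658205-171658561 carried H3K4me1 in 3 libraries, with up to 16 fragments at the summit, and H3K4me3 in 3 libraries. It lies 5170 bp from the nearest TSS, just outside the promoter zone. Farther out, H3K4me3 in 3 libraries lay near the starts of Ly9 and Cd48, genes of the same receptor family.

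Sdc1, which encodes syndecan-1 (CD138), the surface proteoglycan used to recognise plasma cells, carried H3K4me3 at its promoter and almost nowhere else. The promoter covered length was 2210, 2960 and 2250 bp (2473 ± 422 bp, SD, n = 3), and both coding TSSs lay under it in each library. The strongest peaks had fold enrichments of 8.43, 4.999 and 5.65. The gene body held 1 H3K4me3 peak of 394 bp in replicate 1, the outer zone held none, and no H3K4me1 peak was found in any zone.

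Cd28 had a covered length of 0 bp at its promoter in all 6 libraries, and 33.9% of all protein-coding genes likewise had no promoter peak of either mark. Downstream of its coding TSS (chr1:60746358), 2 regions in the gene body carried H3K4me3 in 3 libraries, at 13287 to 15676 bp and at 26675 to 27804 bp. The second, chr1:60773033-60774162, spans the annotated 3′ end of the gene and had H3K4me1 in replicates 1 and 3. Among 12 T cell genes listed for comparison, Cd3e, Cd4, Cd8a, Icos and Il7r also had no promoter peak of either mark. Ctla4, a neighbour of Cd28 on chromosome 1, had promoter H3K4me3 in 3 of 3 libraries with a mean of 1455 bp. Cd3d and Zap70 had 935 and 634 bp, with no peak over a TSS in any library, and Lck and Cd2 had both marks in 3 of 3. GC B cells were enriched with peanut agglutinin beads and then sorted, and the study defines GC B cells as CD38- FAS+ cells among B220+ cells. Whether remaining T cells contributed to these peaks was not tested.

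Set beside each other, the promoter covered lengths did not overlap between the marks at 8 of 9 genes, with H3K4me3 longer in every case. Among all genes, 55.8% showed the same separation and 0 showed the opposite. Promoter H3K4me3 in 3 of 3 libraries was found at nearly the same share, 56.2%. With broad H3K4me3 and narrow H3K4me1 calls, the separation therefore says little beyond that presence. The difference was largest at Slamf7 (5955 bp), Jchain (5195 bp) and Atf6 (4488 bp) and smallest at Ell2 (1784 bp). Within 1 kb of a TSS it was 2666 bp at Slamf7, 1445 bp at Jchain and 1804 bp at Atf6, and Prdm1 (2659 bp) and Xbp1 (2264 bp) lay above the last 2. Slamf7, Prdm1 and Xbp1 have several TSSs and so a longer 1 kb zone than Jchain and Atf6. The two-sided exact permutation p was 0.1 for each of these 8 genes, the smallest that 3 against 3 libraries can give, so no single gene could pass 0.05. At Cd28 all lengths were 0.

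In order of mean promoter H3K4me3 length the genes were Slamf7, Atf6, Jchain, Xbp1, Prdm1, Sdc1, Creb3l2, Ell2 and Cd28. Slamf7 lay above Atf6 and Jchain in every library, and these in turn lay above every library of the other 6 genes. Atf6 and Jchain overlapped each other. Xbp1, Prdm1, Sdc1, Creb3l2 and Ell2 overlapped their neighbours in the order. The median over the 9 genes was 2932 bp, against 1032 bp over all protein-coding genes and 1889 bp over those with any promoter H3K4me3. The 3 genes with the longest H3K4me3 were also the 3 with promoter H3K4me1 in every library. The order rests on the 5 kb zone. Within 1 kb of a TSS it was Slamf7 (2984 ± 610 bp), Prdm1 (2659 ± 0.58 bp), Xbp1 (2422 ± 384 bp), Atf6, Creb3l2 (1889 ± 117 bp), Sdc1 (1733 ± 313 bp), Jchain (1504 ± 455 bp) and Ell2 (1001 ± 437 bp), each as mean ± SD (n = 3). Atf6 was covered over the whole 2001 bp of that zone in every library. A gene with several TSSs has a longer such zone. Slamf7 has 4 coding TSSs, Prdm1 3, and Xbp1, Sdc1 and Ell2 2 each, against 1 at Atf6, Creb3l2 and Jchain. The order of lengths is therefore not an order of covered shares. With the 10000 best peaks per library, Jchain had 0, 5303 and 2092 bp in the 5 kb zone.

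**Figure D2:**
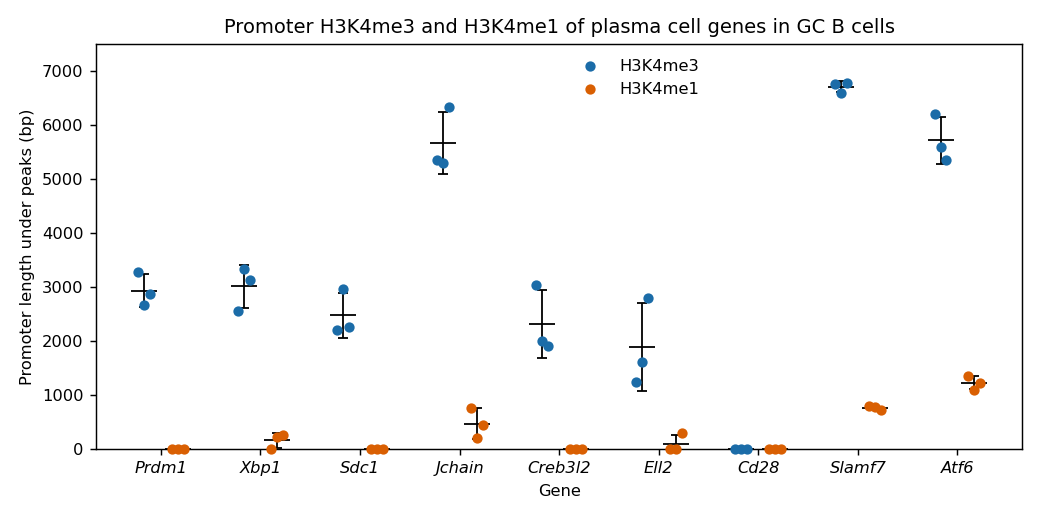
Promoter length under peaks (bp) for each gene, with 1 point per library and bars giving the mean ± SD (n = 3) of each mark. Slamf7, Jchain and Atf6 lie above 5000 bp of H3K4me3 in every library, 5 genes lie between 1229 and 3331 bp, and Cd28 lies at 0 in both marks.

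The promoters differed in sequence as well. RefSeq windows were matched for 7 of the 9 genes, and there was none for Atf6 and Cd28. Jchain and Slamf7 had 3 CpG each in 300 bases, Xbp1 had 10, Sdc1 14, Creb3l2 17, Prdm1 20 and Ell2 23. The median was 3 over 5982 promoters of genes with neither mark in any library and 21 over 1474 promoters of genes with both marks in 3 of 3. Of 3873 genes with at most 3 CpG, 13.9% had promoter H3K4me3 in 3 of 3 libraries and 1.37% had a mean covered length above 5000 bp. For 12642 genes with more CpG the shares were 71.8% and 4.88%. Jchain and Slamf7 had the fewest CpG of the 7 and the longest H3K4me3 of the 7 in the 5 kb zone. Atf6, with 5713 bp as long as Jchain or longer in the mean, is not among the 7, so its CpG number is not known here. Within 1 kb of a TSS Slamf7 was again the longest in bp, but with 4 TSSs its zone is longer than that of genes with 1. Jchain, at 1504 bp, was the second shortest of the 7. This is a description across genes, which share the same libraries.

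**Figure D3:**
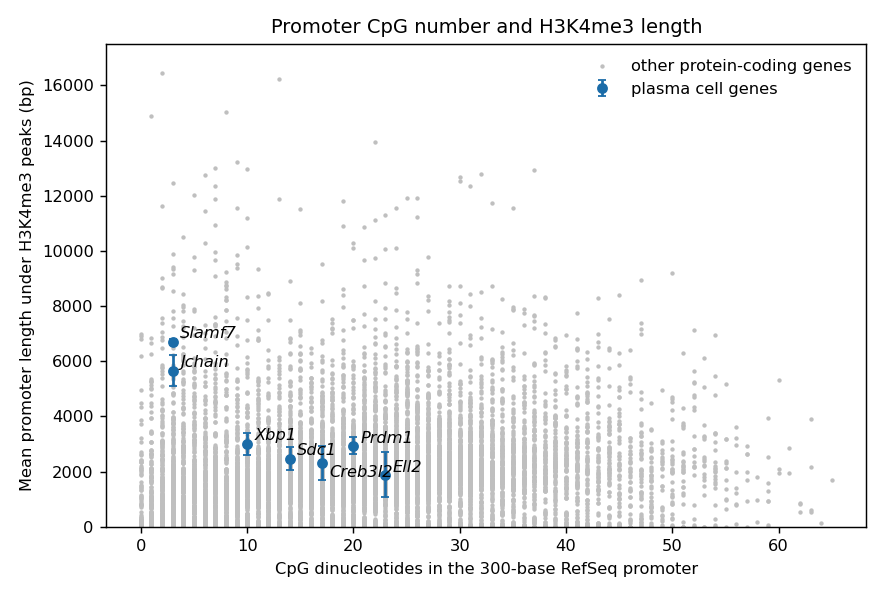
CpG dinucleotides in the 300-base promoter (x axis) against mean promoter length under H3K4me3 peaks in bp (y axis), with grey points for protein-coding genes and blue points for 7 plasma cell genes (mean ± SD, n = 3). Slamf7 and Jchain sit at 3 CpG with 6712 and 5661 bp, while the other 5 labelled genes have 10 to 23 CpG and at most 3008 bp. Atf6 and Cd28 have no promoter window and are not drawn.

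Motifs known for regulators of these genes were searched in the 7 promoter windows on both strands. ACGTG, the core bound by XBP1 and ATF6, was found at Jchain and Slamf7, and in 19.6% of 32851 RefSeq promoters. GGAAGT, a core of PU.1 and SPIB sites, was found at Prdm1 and Xbp1, and in 23.8% of promoters. TTCCNNGAA, a form of the BCL6 and STAT site (in 4.81% of promoters), TATAAA (13.6%) and the endoplasmic reticulum stress element CCAAT, 9 bases, CCACG (0.119%) were found in none of the 7. A match is a match of letters only.

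Away from the promoters, H3K4me3 was found in the gene body in 3 of 3 libraries at Prdm1, Creb3l2, Ell2, Cd28 and Atf6. These are 5 of the 8 genes with such a zone, against 25.2% of all 16746 genes that have one. With only the 10000 best peaks per library this count was 0, against 5.63%. The 5 genes also have the longest gene body zones of the 9, from 46559 bp at Cd28 to 158097 bp at Atf6. Sdc1, Slamf7 and Jchain, which did not meet the rule, have 17302, 11524 and 3082 bp. The shares are not matched for gene length, so the count cannot be told apart from an effect of length. The outer zone held H3K4me3 in 3 of 3 libraries at 8 of 9 genes, all but Sdc1, against 60.3% of all genes. Outer H3K4me1 in 3 of 3 libraries was found at Xbp1, Jchain, Slamf7 and Atf6, against 20.4%. Prdm1 and Cd28 had outer H3K4me1 in 1 and 2 libraries, and Sdc1, Creb3l2 and Ell2 in none.

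**Figure D4:**
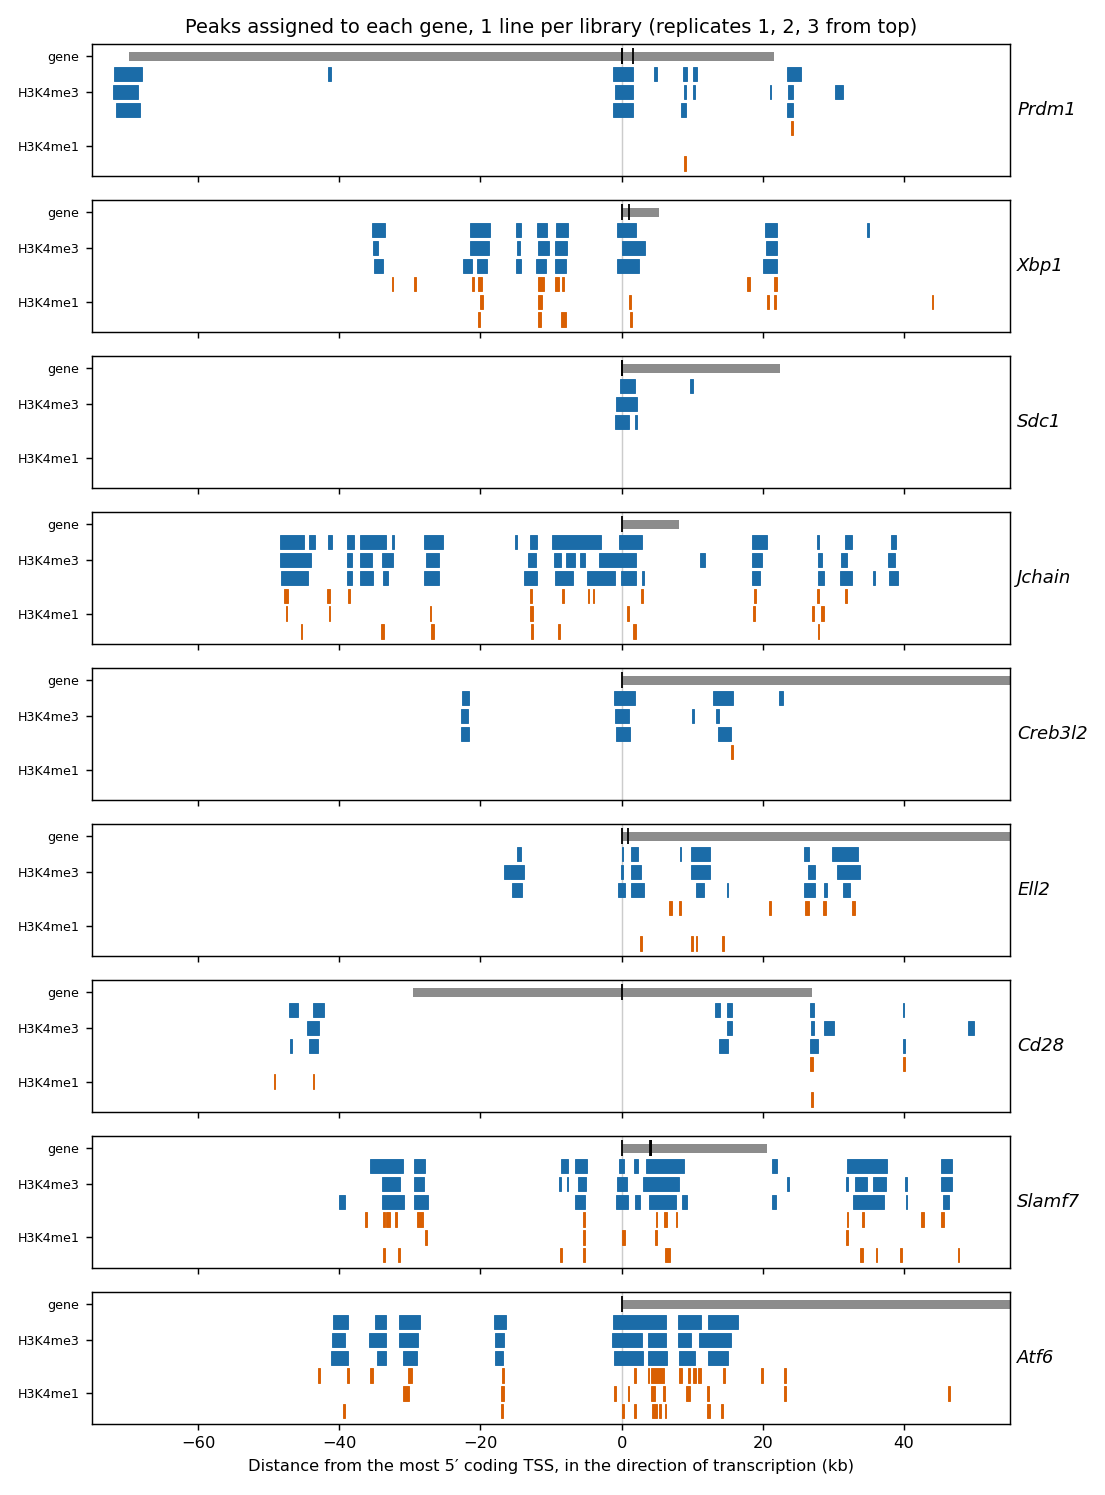
Peaks assigned to each gene, by distance from the most 5′ coding TSS in the direction of transcription (kb), with H3K4me3 in blue and H3K4me1 in orange, 1 line per library, the annotated gene in grey and coding TSSs as black ticks. Sdc1 has H3K4me3 at its start and 1 other peak, Prdm1 has a second block at the far 5′ end of its annotation, and Xbp1, Jchain, Slamf7 and Atf6 have outer peaks of both marks in every library; gene body peaks more than 55 kb downstream are not drawn.

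When peaks were merged over libraries, the 9 genes had 98 H3K4me1 regions, of which 69 came from 1 library, 22 from 2 and 7 from all 3. The 7 were distributed over Xbp1 (2), Jchain (1), Slamf7 (1) and Atf6 (3). All 7 touched H3K4me3 in 3 libraries. By library, 81.8%, 82.4% and 91.9% of H3K4me1 peaks of the 9 genes touched an H3K4me3 peak, against 80.0%, 80.7% and 84.2% of all H3K4me1 peaks. Those that touched H3K4me3 in all 3 libraries were 54.5%, 70.6% and 83.8%, against 60.8%, 62.3% and 66.4% of all H3K4me1 peaks. Of the 82 merged H3K4me3 regions, 52 were found in 3 libraries, and 40 of those touched H3K4me1 in at least 1 library. For merged regions of either mark, no share over all genes was computed.

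For each of the 4 genes with an H3K4me1 region in all 3 libraries, the sequence around the highest summit among those shared regions is shown because these are places outside the promoter zone where both marks recurred. The windows hold 151 bases centred on the summit, read from GRCm38 on the plus strand, with matches to GGAAGT or TTCCNNGAA on either strand in capitals. They are chr1:170710410-170710560 in an intron of Atf6, and chr1:171658325-171658475, chr5:88540521-88540671 and chr11:5509229-5509379 upstream of Slamf7, Jchain and Xbp1.
Atf6: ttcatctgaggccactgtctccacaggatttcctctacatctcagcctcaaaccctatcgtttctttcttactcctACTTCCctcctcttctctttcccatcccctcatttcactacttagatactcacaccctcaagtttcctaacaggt
Slamf7: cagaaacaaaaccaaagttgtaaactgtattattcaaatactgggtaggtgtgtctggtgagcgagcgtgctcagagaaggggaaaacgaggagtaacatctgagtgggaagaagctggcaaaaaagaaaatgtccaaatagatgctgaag
Jchain: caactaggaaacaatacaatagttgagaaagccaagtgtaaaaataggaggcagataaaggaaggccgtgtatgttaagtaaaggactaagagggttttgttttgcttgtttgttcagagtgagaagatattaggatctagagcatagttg
Xbp1: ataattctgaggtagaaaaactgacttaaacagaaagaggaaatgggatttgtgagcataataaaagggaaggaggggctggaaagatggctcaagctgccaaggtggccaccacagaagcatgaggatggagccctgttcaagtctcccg

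The Atf6 summit held 1 GGAAGT match and the others held none, and 12.3% of 49980 H3K4me1 summits of the 3 libraries held one. The summits lay 157286 bp downstream of the Atf6 TSS and 5365, 12705 and 11355 bp upstream of the nearest TSS of Slamf7, Jchain and Xbp1. They held 16, 16, 8 and 8 fragments in the library where each was highest. Higher H3K4me1 summits, in regions not found in all 3 libraries, held up to 12 fragments at Jchain and up to 11 at Xbp1.

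Other genes of the plasma cell program were read the same way from 2 lists. Of 10 further regulators and surface proteins, 10 had promoter H3K4me3 in 3 of 3 libraries and 5 had promoter H3K4me1 in 3 of 3, with a median H3K4me3 length of 5772 bp. Among all protein-coding genes the shares were 56.2% and 6.17%. The 5 were Pou2af1, a B cell coactivator, Mzb1, a chaperone of antibody assembly, Tnfrsf17 (BCMA) and Tnfrsf13b (TACI), receptors for survival factors, and Zbtb20, a transcription factor of long-lived plasma cells. The longest mean promoter H3K4me3 was at Pou2af1 (7873 bp) and Tnfrsf13b (7473 bp), and the shortest at Cd93 (2019 bp) and Tnfrsf17 (3247 bp). At Tnfrsf17 no H3K4me3 peak covered a TSS in any library. Cd93, a surface protein of plasma cells, was the 1 gene of the 10 with promoter H3K4me1 in no library. Expression was not read here, so it is open which of the 10 genes GC B cells already use. The study names Zbtb20 among the target genes of super-enhancers in mouse GC B cells.

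Of 17 genes of the secretory pathway and unfolded protein response, 17 had promoter H3K4me3 in 3 of 3 libraries, with a median of 2942 bp, and 5 had promoter H3K4me1 in 3 of 3. Again the shares of all genes were 56.2% and 6.17%. The 5 were Edem1, which sorts misfolded glycoproteins for degradation, the disulfide isomerases Pdia4 and Txndc5, Sec11c, a signal peptidase subunit, and Creb3, a relative of Creb3l2. The longest H3K4me3 was at Txndc5 (8705 bp) and Edem1 (8312 bp) and the shortest at Prdx4 (1394 bp) and Sel1l (1478 bp). Outer H3K4me1 in 3 of 3 libraries was found at 2 of the 17, Herpud1 and Edem1, and at 6 of the 10 regulators and surface proteins. Over all protein-coding genes the share was 20.4%.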

How the data were processed

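Mint-ChIP peak lists of H3K4me3 (3 libraries) and H3K4me1 (3 libraries) from sorted GC B cells were used. The authors made 1 peak list per library, without pooling, and the files have the MACS2 column layout. The labels name the build mm10 and the tools BWA, Picard, HOMER and Genrich, and the caller's version, settings and control are not given in the sources used here. Values in the deposited files are a fold enrichment (a linear ratio to local background) with a −log10 p-value and a −log10 q-value. In the broad H3K4me3 lists these are averages over the peak. The lowest −log10 q-value was 1.31 to 1.32 for H3K4me1 and 1.02 to 1.14 for H3K4me3.

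Peaks were joined to 41451 TSS positions of 21864 protein-coding genes (GENCODE vM21 basic, GRCm38) with Python 3.11.15 and numpy 2.4.6. A peak was put in the promoter zone if it reached within 5 kb of a TSS, otherwise in the gene body, otherwise in the outer zone (5 to 50 kb). An overlap of 1 bp sufficed. A covered length counts all base pairs of a zone under peaks, including those of a peak put in another zone. Distances are from the nearest coding TSS. Summit fragments were recovered from the fold and p-value of narrow peaks (tolerance 0.01 in −log10 p, at least 99.99% of peaks). Total reads per library are unknown, so no interval for counting error was given. The replicates are separate libraries, and nothing in the labels used here says that they came from separate mice, so p-values measure the spread between libraries. Marks were compared with two-sided exact permutation tests over 20 assignments (scipy 1.17.1). Zone calls were tested on simulated data. All 9 genes are named, with, for each plasma cell list, the 2 longest and 2 shortest promoter H3K4me3 lengths and every gene with promoter H3K4me1 in 3 of 3 libraries, and neighbours whose TSS lies within 5 kb of an outer peak. Genes and lists were chosen with earlier results of these data known.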

Additional observations from a re-analysis of the deposited data

How the results depend on the processing

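Of 75 values recomputed under alternatives for the member counts and the contrast of marks, 61 stayed within 1.5 times the reported count and 14 did not. None of 99 differences between marks at single genes changed sign. This says little, as Cd28 differed by 0 bp in every setting. In addition, 0 of all 21864 genes had a longer promoter covered length in every H3K4me1 library than in every H3K4me3 library. Shares of all genes under the same setting are in parentheses. With only peaks of −log10 q of at least 5, gene body H3K4me3 was left at 1 gene, Atf6 (9.46%), outer H3K4me3 at 4 (42.9%) and promoter H3K4me1 at 1, Slamf7 (0.503%), while promoter H3K4me3 was left at 7, without Sdc1 (34.9%). Fewer peaks enter by construction under this filter and the next. With the 10000 best peaks per library, promoter H3K4me3 was left at 5 genes (23.8%), gene body H3K4me3 at 0 (5.63%) and outer H3K4me3 at 4 (33.0%), and the marks separated at 5 genes. The permutation p was then 0.4 at Jchain, 0.7 at Ell2 and 1 at Sdc1. Promoter H3K4me1 fell to 0 genes within 1 kb of a TSS (1.49%) and to 0 where the peak had to cover a TSS (0.0274%), and rose to 5 where 1 of 3 libraries sufficed (35.7%). Gene body H3K4me1 rose to 4 genes in at least 2 libraries (15.5%) and to 5 in at least 1 (27.8%). Leaving out 1 library in turn gave 1 to 3 genes with gene body H3K4me1, with 3 without H3K4me1 replicate 2 (11.1%) and 2 without replicate 3 (12.3%). Limiting genes to their protein-coding transcripts, chosen after seeing the data, changed no count.

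Replicate numbers are shared between the marks. Deviations of same-numbered libraries correlated at r = 0.030, 0.017 and 0.006 over 7679 genes, so the numbers were not taken to pair samples, although each library correlated best with its own number. With the replicate block, 8 genes still had longer H3K4me3 in every pair, with an exact sign-flip p of 0.25, the smallest that 3 pairs allow. The narrow H3K4me1 calls rest on few fragments, which limits what their absence shows.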
